A study of Mus musculus with 10 samples.

Results

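The genes described here were scarce or near absent in heterozygous cardiomyocytes of the mouse heart and more abundant in cardiomyocytes in which both alleles of Actn2 were targeted for deletion. They were chosen on CPM, the reads of a gene scaled to the same library total in every sample, by 4 conditions: a heterozygote mean under 10 CPM, a knockout mean of at least 3 CPM, a knockout mean at least 3 times the heterozygote mean, and every knockout animal above every heterozygote. Of the 23337 genes in the table, 83 met these conditions. The rule leaves out 5 of them by name (Inhba, Krt80, Gnao1, Dusp26 and Adamts8), so 78 genes remained. The difference between the genotypes is what chose these genes, so their levels are given as a description without a test. All 78 genes passed the filter on low counts, which needed enough reads in only 1 of the 2 groups, and all 78 were called higher in the whole-table fit, against 10.2% of the 11870 genes tested. Nothing is read from that count, because the rule used the same contrast.

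Actn2 encodes alpha-actinin 2, the cross-linking protein of the sarcomeric Z-disc, where actin filaments of opposite polarity are anchored. The study asked what its loss does to the cardiomyocyte transcriptome. RNA was sequenced from 10 mice, 5 heterozygotes with a single floxed allele (Actn2-F+) and 5 knockouts with both alleles floxed (Actn2-FF). Every animal, controls included, received an adeno-associated virus, AAV9-cTNT-Cre, at postnatal day 1 and was collected at postnatal day 14. The cardiac troponin T promoter (cTNT) drives the Cre recombinase that deletes the floxed sequence, so deletion was directed at cardiomyocytes, and the heterozygotes had Cre but kept a wild-type allele. The dose was 3.6 in units of 1e8 viral genomes per gram of body weight. Hearts were perfused with collagenase to free the cells, and cardiomyocytes were then sorted by flow cytometry. Libraries were made from 10 ng of total RNA with SMART-Seq v4 and 8 PCR cycles, and then from 500 pg of cDNA with Nextera XT. The series gives 5 biological replicates per genotype.

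A cardiomyocyte of this age is leaving its fetal programme, and many genes of other tissues are held at a low level in it. Stressed heart muscle is known to express again some genes of the fetal heart. Endothelins are secreted vasoactive peptides that signal through G protein-coupled receptors, Wnt ligands signal through Frizzled receptors, and semaphorins signal through plexins and neuropilins.

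The libraries held between 8086656 and 25237696 counted reads, and heterozygote 1 was the deepest. Actn2 lay between 2639 and 3353 CPM in the heterozygotes and between 1174 and 1288 CPM in the knockouts, so the groups did not overlap and the labels matched the targeted gene in every library (log2 fold change -1.39, SE 0.0910, adjusted p = 3.48e-07, edgeR quasi-likelihood test). Reads from Actn2 remained in the knockouts, and its level varied little among them. The cardiomyocyte marker sum (10 genes, Myh6 and Tnnt2 among them) ranged from 103860 to 120685 CPM in heterozygotes and from 105199 to 123862 CPM in knockouts. Lymphocyte markers summed to at most 1.61 CPM in any animal, with Cd3g, Cd2 and Nkg7 at 0 throughout. In these bulk samples, fewer cells of a type and less RNA per cell cannot be told apart.

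The regulatory sequence in front of 5 of the genes is shown because it bears on the pairs of neighbouring genes described further on, and on the genes with the largest fold differences. The bases end at the transcription start site of a RefSeq transcript, are written 5′ to 3′ on the strand of the gene, and come from RefSeq on GRCm38.p6, the assembly that mm10 represents. Capitals mark a searched motif. The Edn3 sequence is chr2:174760369-174760618 on the plus strand, Tmem90b is chr2:149830533-149830782 on the plus strand, 0610007N19Rik is the 151 bases at chr15:32244663-32244813 on the minus strand up to the first base of Sema5a, 4933436C20Rik is chr8:92356121-92356370 on the minus strand, and Col4a6 is chrX:141474077-141474326 on the minus strand.
Edn3: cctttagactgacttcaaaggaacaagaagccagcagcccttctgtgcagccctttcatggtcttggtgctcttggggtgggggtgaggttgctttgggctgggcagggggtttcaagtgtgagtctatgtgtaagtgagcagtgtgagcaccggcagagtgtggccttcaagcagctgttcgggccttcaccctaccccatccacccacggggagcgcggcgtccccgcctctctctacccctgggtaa
Tmem90b: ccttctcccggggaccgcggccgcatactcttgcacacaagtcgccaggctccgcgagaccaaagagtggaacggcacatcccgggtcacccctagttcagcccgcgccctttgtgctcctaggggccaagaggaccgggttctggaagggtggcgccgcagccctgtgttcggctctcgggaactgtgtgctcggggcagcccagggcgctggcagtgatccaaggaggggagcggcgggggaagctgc
0610007N19Rik: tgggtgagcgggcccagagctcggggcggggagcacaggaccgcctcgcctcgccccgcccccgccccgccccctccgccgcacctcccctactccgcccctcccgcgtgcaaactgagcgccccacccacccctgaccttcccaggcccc
4933436C20Rik: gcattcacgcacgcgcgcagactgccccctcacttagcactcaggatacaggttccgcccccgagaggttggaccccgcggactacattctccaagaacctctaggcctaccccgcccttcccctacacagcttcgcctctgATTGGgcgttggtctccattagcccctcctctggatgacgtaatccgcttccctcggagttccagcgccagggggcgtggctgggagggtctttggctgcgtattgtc
Col4a6: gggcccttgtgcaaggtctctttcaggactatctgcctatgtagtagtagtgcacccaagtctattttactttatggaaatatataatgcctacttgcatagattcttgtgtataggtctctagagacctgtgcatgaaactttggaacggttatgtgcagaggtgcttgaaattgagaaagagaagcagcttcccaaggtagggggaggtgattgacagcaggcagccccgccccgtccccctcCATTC
In 4933436C20Rik the capitals mark a CCAAT box read on the opposite strand (ATTGG). In Col4a6 they mark the first bases of CATTCC, which is GGAATG read on the opposite strand, a match that runs across the start site. Edn3, Tmem90b and 0610007N19Rik hold none of the searched motifs in the stretch shown.

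RefSeq promoters, each from 250 bases before to 50 bases after a start site, were found for 64 of the 78 genes, 91 promoters in all, and were set against all 32851 promoters in the table. Their median GC content was 60%, against 52.7% over all promoters. On either strand, the TEAD motif GGAATG lay in 15.4% of them and in 14.7% of all promoters, and the AP-1 motif TGANTCA in 11% and 7.81%. The GATA motif AGATAA lay in 11% and 11.2%, the cyclic AMP response element TGACGTCA in 1.10% and 1.79%, and the ATF4-type motif TGATGNAA in 2.20% and 3.97%. The TATA box TATAAA was present in 5.49% of the promoters and 13.6% of all promoters, the CCAAT box in 29.7% and 37.4%, and the NFAT-type motif GGAAAA in 15.4% and 23.4%. The SRF CArG box was found in 1.10% against 1.63%, and the MEF2 site in 1.10% against 3.19%. These shares are a description, and none of them was tested. The comparison was with all promoters and not with those of the 11870 tested genes alone. It thus takes no account of the filter on low counts, which all 78 genes passed.

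Together the 78 genes made up 204, 205, 238, 237 and 195 CPM in heterozygotes 1 to 5 and 1317, 1072, 1385, 959 and 1055 CPM in knockouts 1 to 5. Their summed level was thus 216 ± 20.5 CPM (SD, n = 5) against 1157 ± 183 CPM (SD, n = 5), a ratio of 5.37. The median ratio of knockout to heterozygote mean was 5.18, 41 genes reached 5 and 14 reached 10. Few of the genes were silent in the heterozygotes: 69 had reads in every heterozygote, 22 had a heterozygote mean under 1 CPM and 1 gene, Ces5a, had no read in any. Most are therefore better described as scarce in the heterozygote than as switched on by the knockout. In the knockouts, 35 genes reached a mean of 10 CPM and 11 stayed under 5 CPM. The lowest knockout was at least 2 times the highest heterozygote for 49 of the 78. Full separation of the groups in this direction was met by 11.5% of all tested genes, and here it was a condition of the choice.

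**Figure D1:**
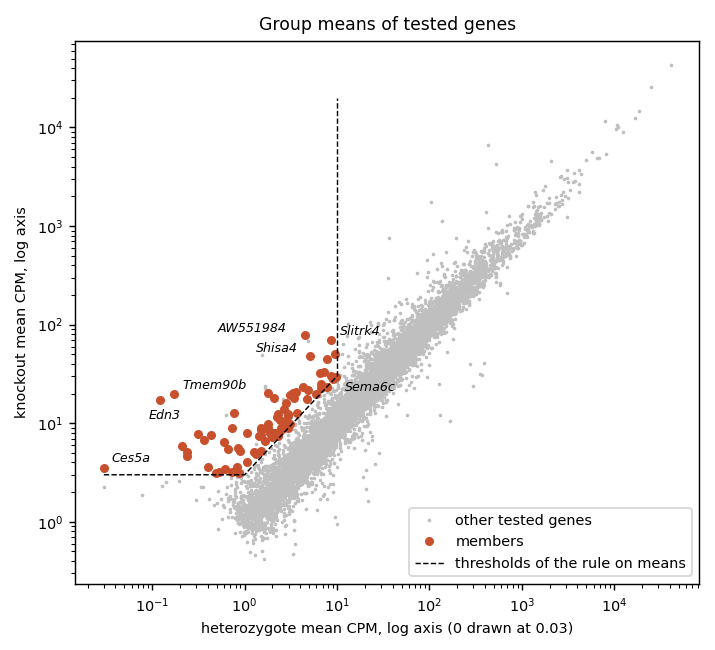
Knockout mean against heterozygote mean in CPM, both on log axes, for each tested gene (grey) and the 78 chosen genes (red), with dashed lines at the thresholds on the means. The chosen genes lie between 3.12 and 77.8 CPM in the knockouts, and Edn3, Tmem90b and Ces5a lie farthest to the left of the main cloud.

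The thresholds fell within a continuous spread of genes. On the heterozygote mean, Sema6c (9.69 CPM), Prss23 (9.59 CPM) and Pcdh18 (9.06 CPM) lay just inside, while Tlr4 (11.4 CPM), 4930513N10Rik (11.6 CPM) and Ppfia4 (11.9 CPM) lay just outside. On the knockout mean, Serpina3c (3.12 CPM), 2200002D01Rik (3.15 CPM) and Sypl2 (3.18 CPM) lay inside, while Baalc (2.84 CPM), Rnd1 (2.83 CPM) and Bmp2 (2.78 CPM) lay outside. The ratio was 3.0 for Gprasp2, 3.02 for Napepld and 3.05 for Sema6c, against 2.96 for AW011738, 2.95 for Morn4 and 2.94 for Src. The lowest knockout over the highest heterozygote was 1.16 for Sypl2 and 1.17 for Sema6c and Olfr1033, against 0.906 for Pdgfc and 0.793 for B3galt2. Missing 1 condition alone kept out 43 genes on the heterozygote mean, 63 on the knockout mean, 199 on the ratio and 4 on the separation of the groups.

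The chosen genes fell into 10 roles by textbook function, with a further 10 genes given no role, a sorting made after their values were seen. Secreted ligands and signalling regulators numbered 5. Edn3 (chromosome 2, 174760773 to 174784042 in the table's mm10 coordinates, plus strand) encodes endothelin 3, the ligand best known for guiding neural crest cells through the endothelin B receptor. Its level in heterozygotes 1 to 5 was 0.277, 0.232, 0, 0 and 0.0970 CPM, and in knockouts 1 to 5 it was 32.5, 17.5, 23.8, 7.99 and 5.21 CPM. The ratio of the means was 144, the largest of the genes with heterozygote reads. The knockouts themselves spanned a factor of 6.23, with knockout 1 highest and knockouts 4 and 5 lowest. The fitted log2 fold change of 6.61 became 7.46 without heterozygote 1, the deepest library and the highest of the heterozygotes for this gene.

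Wnt5b, a Wnt ligand mostly tied to pathways that do not run through beta-catenin, was at 7.81, 6.60, 12.1, 10.1 and 6.30 CPM in the heterozygotes and at 29.5, 28.8, 37.3, 29.1 and 25.5 CPM in the knockouts. The knockouts were close together, with knockout 3 highest. Fstl3, which encodes a secreted antagonist of activin and related ligands, stood at 0.723 ± 0.200 CPM in heterozygotes and 9.01 ± 4.25 CPM in knockouts (SD, n = 5 each). Its exons overlap those of Prss57 on the other strand, and Prss57 itself had 1 read over the 10 animals. Sema3d, a secreted semaphorin, was at 1.23, 0.926, 0.618, 3.29 and 1.45 CPM in the heterozygotes and at 5.84, 8.18, 9.01, 8.20 and 11.1 CPM in the knockouts. Vash2, of the vasohibin family, was at 2.46 ± 0.688 and 8.56 ± 2.99 CPM (SD, n = 5 each). The gap between the groups was narrow for Sema3d and Vash2 and wide for Fstl3 and Edn3.

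Cell-surface receptors numbered 8, with ratios from 3.05 to 7.54. Fzd2 (chromosome 11, 102604431 to 102608058, plus strand), a Frizzled receptor for Wnt ligands, was at 7.53, 13.1, 7.30, 5.67 and 5.24 CPM in the heterozygotes and at 58.9, 41.3, 59.2, 35.7 and 27.8 CPM in the knockouts. Knockouts 1 and 3 were the highest and knockout 5 was the lowest. Sema6c, a membrane-bound semaphorin, was at 10.3, 14.5, 8.16, 4.54 and 11 CPM against 40.5, 38.6, 24.1, 27.6 and 16.9 CPM, so its groups nearly met. Ptpro, a receptor tyrosine phosphatase, was at 2.93, 1.85, 4.08, 3.86 and 4.27 CPM against 15, 15.6, 19.6, 16.7 and 23.8 CPM, well apart. Lrp8, a receptor for reelin and apolipoprotein E, was at 1.07 ± 0.532 and 8.04 ± 0.821 CPM (SD, n = 5 each), with knockouts within a factor of 1.32 of each other. The glutamate receptor subunit gene Gria3 was at 1.78 ± 0.388 and 8.88 ± 1.43 CPM (SD, n = 5 each). The remaining receptors, Ptprn, Paqr8 and Olfr1033, had knockout means of 7.92, 6.58 and 3.43 CPM.

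Adhesion, synapse and other membrane proteins formed a group of 10. Slitrk4 (X, 64269444 to 64276996, minus strand) encodes a leucine-rich repeat membrane protein known from synapse formation. It was at 11.6, 3.13, 10.3, 11.7 and 6.40 CPM in the heterozygotes and at 77.9, 69.4, 96.7, 51.7 and 53.9 CPM in the knockouts. Shisa4 (chromosome 1, 135371456 to 135375063, minus strand), a single-pass membrane protein, was at 3.88, 6.95, 3.96, 4.2 and 6.50 CPM against 56.1, 39.3, 54.0, 45.7 and 46.3 CPM. For both genes the lowest knockout was several times the highest heterozygote. Per length, Shisa4 was the most abundant of all 78 in the knockouts, at 40.6 RPKM (CPM per kilobase of exon), followed by Slitrk4 at 17.8 RPKM and AW551984 at 17.6 RPKM.

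Tmem90b (chromosome 2, 149830783 to 150004392, plus strand), now named Syndig1, encodes a membrane protein of excitatory synapses. It was at 0.396, 0.347, 0, 0.113 and 0 CPM in the heterozygotes and at 41.4, 17.4, 25, 8.42 and 6.51 CPM in the knockouts, a ratio of 115. The knockouts fell in the same order as for Edn3 and spanned a factor of 6.35, the widest among the 78 genes. Without heterozygote 1, its fitted log2 fold change of 6.35 became 7.27. Cdh3, which encodes the classical cadherin P-cadherin, was at 0.238, 0.116, 0.371, 0.454 and 0.388 CPM against 3.69, 5.04, 8.91, 10.7 and 10.6 CPM, a ratio of 24.8. Here knockouts 1 and 2 were the lowest, whereas knockouts 4 and 5 were the lowest for Tmem90b and Edn3. Thsd7a, a thrombospondin-repeat membrane protein, was at 4.28, 3.94, 5.69, 3.40 and 4.17 CPM against 43.9, 25, 16, 18.2 and 14.6 CPM. The protocadherin gene Pcdh18 was at 10.9, 7.99, 9.89, 9.87 and 6.69 CPM against 32.9, 40.2, 31.1, 21.3 and 13.9 CPM. Knockout 1 stood alone at the top for Thsd7a, and knockout 5 was the lowest for both. Kirrel3 (7.92 CPM), Cercam (7.26 CPM), Pcdhga3 (5.27 CPM) and Sypl2 (3.18 CPM) had lower knockout means. Pcdhga3 shares exons with the other gamma-protocadherin genes, so its reads cannot be told from theirs with certainty.

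Channels and transporters were 3. Panx1, which encodes the pannexin 1 channel that releases ATP, was at 1.42 ± 0.401 and 7.47 ± 1.40 CPM (SD, n = 5 each). Fam26e, now Calhm5, of the calcium homeostasis modulator family, was at 2.67 ± 0.933 and 13.9 ± 4.43 CPM (SD, n = 5 each). Slc24a2, a sodium, calcium and potassium exchanger, was at 2.99 ± 0.876 and 11.9 ± 1.87 CPM (SD, n = 5 each). All of these had knockouts within a factor of 1.93.

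Kinases and intracellular signalling proteins numbered 11. Grk5, a kinase that desensitises G protein-coupled receptors and is well studied in heart failure, was at 5.27, 8.10, 7.91, 7.15 and 5.53 CPM in the heterozygotes and at 31.6, 25.7, 27.9, 18.8 and 20.2 CPM in the knockouts. Ptk2b, the calcium-sensitive focal adhesion kinase relative Pyk2, was at 7.85, 8.80, 6.80, 5.22 and 4.66 CPM against 25.2, 22.5, 22.1, 18.8 and 25.6 CPM. Mapk4, an atypical MAP kinase, was at 2.93, 3.59, 7.54, 4.88 and 5.43 CPM against 22.7, 20.6, 27.3, 18.1 and 19.4 CPM. These genes varied little among knockouts, by factors of 1.69, 1.36 and 1.51. Sntg2, a syntrophin of the dystrophin-associated complex, was at 0.238, 0.232, 0.247, 0.227 and 0.0970 CPM against 3.58, 7.71, 4.10, 3.35 and 10.3 CPM, a ratio of 27.9, with knockouts 2 and 5 highest. Nlrc3, a member of the NLR family, varied the most in this group, by a factor of 5.30 among knockouts around a mean of 8.89 CPM. Cnksr1 (12.4 CPM), Gprasp2 (8.87 CPM), the small GTPase gene Rhou (7.68 CPM), the p21-activated kinase gene Pak3 (7.58 CPM), Plcxd2 (4.06 CPM) and Sphkap (3.61 CPM), an anchor of protein kinase A, completed the group by knockout mean.

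Transcription factors and RNA-binding proteins were 7. Rorb, an orphan nuclear receptor, was at 3.49, 1.16, 2.97, 3.86 and 4.17 CPM in the heterozygotes and at 20.4, 21.6, 23.5, 13.3 and 18.9 CPM in the knockouts. Creb5, a CRE-binding basic leucine zipper factor, was at 2.34, 3.47, 4.2, 8.28 and 5.63 CPM against 12.8, 12.6, 23.6, 15.4 and 24.3 CPM. Knockouts 3 and 5 were set apart from the others for Creb5 but not for Rorb. Arnt2, a bHLH-PAS dimerisation partner, was at 0.238, 0.579, 0.371, 0.454 and 0.194 CPM against 7.27, 7.0, 8.11, 4.32 and 7.04 CPM, a ratio of 18.4. Developmental homeobox and T-box factors were present at low levels: Prrx2 was at 0.277, 0.116, 0.495, 0 and 0.291 CPM against 7.37, 3.31, 6.70, 2.70 and 5.21 CPM. Tbx15 was at 0.604 ± 0.464 and 6.52 ± 2.51 CPM (SD, n = 5 each). Nova1, a neuronal splicing regulator, was at 0.634, 0.810, 0.495, 0.227 and 0 CPM against 8.81, 2.12, 13.2, 8.42 and 5.33 CPM. For Nova1 the knockouts spanned a factor of 6.22, with knockout 2 lowest. Zfp37, a zinc finger gene, had a knockout mean of 7.42 CPM.

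Extracellular proteases, inhibitors and matrix genes numbered 7. Prss23 (chromosome 7, 89507785 to 89517586, minus strand), a secreted serine protease, was at 7.53, 9.03, 8.66, 12.5 and 10.3 CPM in the heterozygotes and at 60.8, 51.8, 54.0, 43.8 and 42.0 CPM in the knockouts. Mmp23, a membrane-anchored matrix metalloprotease, was at 1.98, 1.62, 1.61, 2.72 and 1.07 CPM against 26.8, 16.5, 25.6, 17.4 and 14.0 CPM. For both, knockouts 1 and 3 were the highest. Leprel1, now P3h2, a collagen prolyl hydroxylase, was at 2.83 ± 1.44 and 16 ± 7.99 CPM (SD, n = 5 each). The metalloprotease gene Adamts20 was at 0.769 ± 0.522 and 12.7 ± 6.27 CPM (SD, n = 5 each), a ratio of 16.5. Mmel1, a relative of neprilysin, Col4a6, a basement membrane collagen chain, and the serpin gene Serpina3c had knockout means of 3.57, 3.2 and 3.12 CPM.

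Cytoskeletal genes were 5. Krt18 and Krt8 encode the keratin pair of simple epithelia, which assemble with each other, and the genes lie 23874 bases apart on chromosome 15. Krt18 was at 1.94, 1.39, 3.83, 2.27 and 0.873 CPM in the heterozygotes and at 10.0, 7.32, 29.2, 10.6 and 33.1 CPM in the knockouts. Krt8 was at 0.555, 1.27, 1.61, 0.681 and 0.0970 CPM against 4.2, 4.09, 7.70, 4.96 and 7.16 CPM. Both were highest in knockouts 3 and 5 and lowest in knockout 2. Both keratins were on the epicardial marker list, and its other 7 markers summed to between 4.28 and 22.0 CPM in heterozygotes and between 4.40 and 9.12 CPM in knockouts (exact permutation test, two-sided, p = 0.556, adjusted p = 0.952 over 12 cell types), with none of the 7 at 0 in every animal. Those 7 summed to 7.91 and 9.12 CPM in knockouts 3 and 5 and to 4.40, 6.37 and 5.83 CPM in knockouts 1, 2 and 4. In heterozygotes 1 to 5 they summed to 5.67, 4.28, 11.1, 22.0 and 4.75 CPM, highest in heterozygote 4, where Krt18 was at 2.27 CPM. The part of epicardial cells in the keratin values was not tested. Synm, which encodes the intermediate filament protein synemin, was at 1.87 ± 0.473 and 8.17 ± 1.81 CPM (SD, n = 5 each). The tubulin polyglutamylase gene Ttll7 and C530008M17Rik, now Cracd, had knockout means of 11.7 and 10.7 CPM.

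Enzymes and a chaperone numbered 6. Hspa1l, an Hsp70 family chaperone, was at 4.79, 8.22, 9.77, 6.81 and 3.2 CPM in the heterozygotes and at 38.5, 29.3, 33.8, 30.5 and 30.6 CPM in the knockouts. Napepld, the phospholipase D that forms N-acylethanolamines, was at 8.12, 7.52, 9.65, 6.13 and 7.27 CPM against 29.4, 24.2, 24.2, 17.2 and 21.8 CPM. Hspa1l varied by a factor of 1.32 among knockouts, and Napepld had one of the smallest ratios, 3.02. Ces5a (chromosome 8, 93499378 to 93535707, minus strand), a carboxylesterase gene, had no read in any heterozygote and was at 3.89, 3.38, 3.90, 2.91 and 3.61 CPM in the knockouts, from 27 to 61 reads each. Its knockout mean was at least 72.2-fold higher than the floor of 3 counts over the heterozygote group, or at least 42.3-fold higher without heterozygote 1, the deepest library. Its knockouts were within a factor of 1.34, unlike the strongly ranked Edn3 and Tmem90b. On chromosome 8, Ces5a lies 275131 bases from Gnao1, a gene the rule left out by name, which was at 4.89 ± 1.16 and 69.0 ± 25 CPM (SD, n = 5 each). The glycan enzyme genes Gcnt1, St8sia1 and Chst3 had knockout means of 8.85, 5.45 and 4.83 CPM.

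Long non-coding RNAs numbered 6. Gm12295 was at 8.28, 6.95, 5.56, 6.81 and 8.34 CPM in the heterozygotes and at 29.0, 36.1, 33.9, 34.0 and 33.2 CPM in the knockouts. Its knockouts spanned a factor of only 1.25, the narrowest among the 78 genes. 1500017E21Rik, now Hectd2os, was at 6.34, 5.67, 6.06, 6.13 and 5.63 CPM against 19.3, 16.8, 26.0, 18.7 and 17.4 CPM. It overlaps an exon of Hectd2 on the other strand, and counting was run with no strand option, so reads of the 2 genes cannot be told apart there. Hectd2 itself was at 2.42 ± 0.798 and 4.24 ± 0.918 CPM (SD, n = 5 each), an increase that did not pass the edgeR threshold (adjusted p = 0.0896). 0610007N19Rik (Snhg18), 4933436C20Rik (Crnde), 4833412C05Rik and D830029L11 had knockout means of 10.3, 8.04, 5.17 and 5.16 CPM.

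The 10 genes without a role here included the gene with the highest knockout mean. AW551984 (chromosome 9, 39587396 to 39604124, minus strand) was at 4.08, 3.59, 5.19, 6.13 and 3.39 CPM in the heterozygotes and at 71.0, 69.7, 112, 71.3 and 64.7 CPM in the knockouts, a ratio of 17.4. Knockout 3 stood above the other knockouts, which were close together. Ankrd45 was at 3.88, 2.66, 3.96, 3.40 and 3.98 CPM against 22.3, 17.3, 22.3, 17.3 and 25 CPM. 1500009L16Rik was at 2.89, 2.78, 3.34, 4.08 and 3.49 CPM against 23.9, 15.2, 27.1, 16.8 and 19.3 CPM. ORF63, now Map3k7cl, was at 0.198, 0.463, 0.124, 0.227 and 0.194 CPM against 5.94, 2.83, 8.71, 2.05 and 3.79 CPM, a ratio of 19.3. All 4 were lowest in knockout 2, 4 or 5 and far from their heterozygotes. Lancl3, Klhl34, Armcx4, Tceal7 and Sel1l3 had knockout means between 8.64 and 12.6 CPM, and 2200002D01Rik had 3.15 CPM. The last overlaps an exon of the far more abundant Yif1b on the other strand, so reads of the 2 genes cannot be told apart there. This overlap is short, from base 29247521 of chromosome 7 to base 29247532, where Yif1b ends, while 2200002D01Rik has 507 bases of exon. Yif1b was at 85.0 ± 24.4 and 67.6 ± 6.68 CPM (SD, n = 5 each, adjusted p = 0.0986, edgeR).

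**Figure D2:**
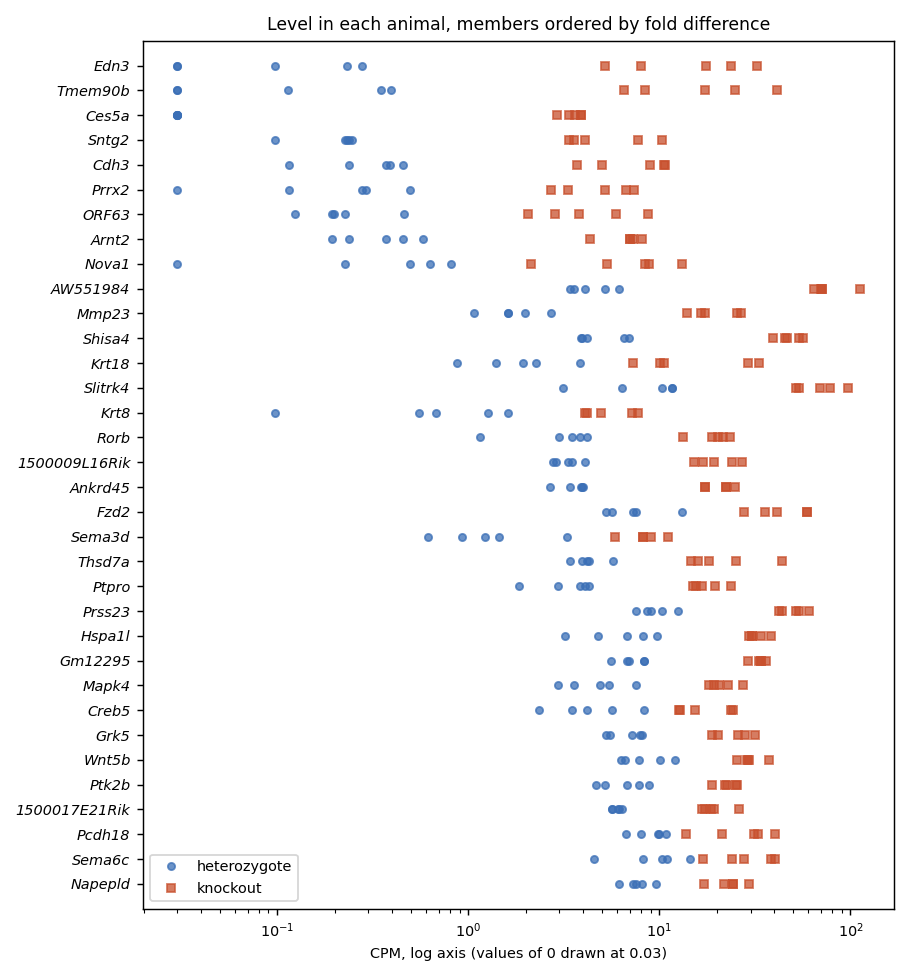
CPM on a log axis in each of the 5 heterozygotes (circles) and 5 knockouts (squares) for the 34 chosen genes singled out by a rule on level, ratio and the gene lists, ordered by ratio. The groups do not overlap for any gene, as the choice required, and the knockouts of Edn3 and Tmem90b are spread far wider than those of Gm12295 or Ces5a.

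The knockouts were not alike across these genes. The median coefficient of variation among knockouts was 26.4%, and 14 of the 78 genes differed by a factor of 3 or more between the highest and lowest knockout. Knockout 1 was the highest for 23 genes and knockout 3 for 28, together 51, while knockouts 2, 4 and 5 were highest for 5, 4 and 18. Knockouts 2 and 4 were the lowest for 22 and 24 genes. Among all tested genes, knockouts 1 and 3 were the highest for 12.5% and 17.4%, so the chosen genes leaned towards these 2 animals more than the transcriptome did. This is a description of 5 animals, made without a test. Among genes outside the rule that were called higher, knockout 1 was the highest for 11.1% and knockout 3 for 25.7%. The level of Actn2 that remained was 1265, 1288, 1174, 1244 and 1276 CPM in knockouts 1 to 5, lowest in knockout 3, a spread narrower than that of any chosen gene. Knockout 5 had the highest atrial marker sum, 468 CPM against 55.9 to 121 CPM in the other knockouts. The part of that sum in the 18 genes highest in knockout 5 was not tested. Knockout 5 was also the highest for 25.8% of all tested genes.

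Several sets of genes ranked the 5 knockouts in 1 identical order. Edn3, Tmem90b, Prss23, Klhl34 and Tbx15 all fell from knockout 1 through 3, 2 and 4 to 5. Adamts20, C530008M17Rik, Arnt2, ORF63 and Ces5a all had the order 3, 1, 5, 2, 4. Krt18, Creb5, 4933436C20Rik and Pak3 had the order 5, 3, 4, 1, 2. Shisa4, Hspa1l, Gria3 and Sypl2 had the order 1, 3, 5, 4, 2. The size of the spread differed within these sets, from a factor of 6.35 in Tmem90b to 1.32 in Hspa1l. Identical ranks over 5 animals say nothing of shared control.

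**Figure D3:**
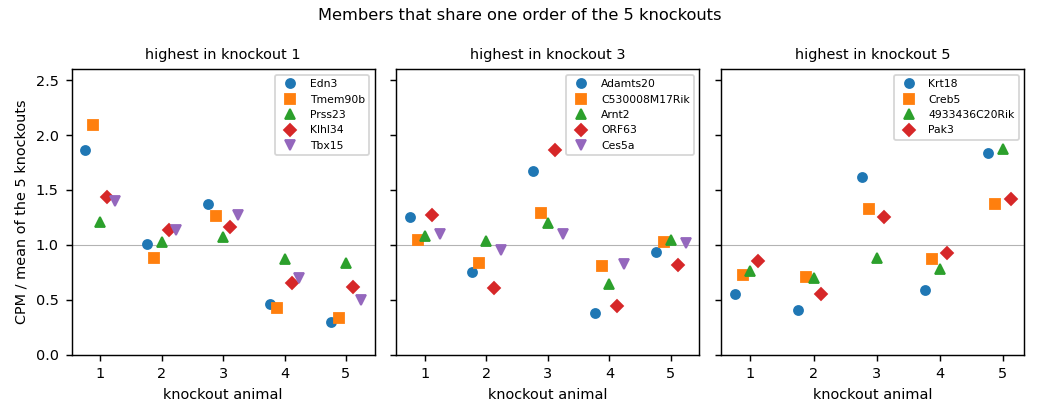
Level in each knockout animal divided by the mean of the 5 knockouts (linear axis) for genes that ranked the knockouts in the same order, in 3 panels. Edn3 and Tmem90b change most from animal to animal in the first panel, and Krt18 is highest in knockouts 3 and 5 in the third.

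The kind and position of the genes were not used by the rule. Length entered it through CPM, which is not divided by exon length. Of the 78, 72 are annotated as protein-coding and 6 as long non-coding RNAs, and their median summed exon length was 3603.5 bases against 2960.5 bases over tested genes. Of the 78 genes, 9 lie on the X chromosome, 11.5% against 3.30% of tested genes, and none lies on chromosome 13, which holds Actn2 and 3.73% of tested genes. The 9 were Slitrk4, Gria3, Gprasp2, Pak3, Col4a6, Lancl3, Klhl34, Armcx4 and Tceal7. Among the other 383 tested X-linked genes, 51 were called higher (13.3%) and 23 lower, against 9.65% called higher over all tested genes outside the rule. The labels do not give the sex of the animals. With Y-linked expression as a covariate, the fitted log2 fold changes of the 9 genes ran from 1.58 to 2.85, against 1.5 to 2.92 without it.

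Among the X-linked genes, 3 (Armcx4, Gprasp2 and Tceal7) lie within 1.54 Mb of each other (X, 134686519 to 136226100, mm10), a stretch picked after their values were seen. The Armcx, Gprasp, Bex and Tceal genes there are related families, several of them prominent in brain. Of the 13 other genes tested in it, 6 were called higher by edgeR, with a median log2 fold change of 0.45, against 10.2% called higher over all tested genes. None was called lower by edgeR, DESeq2 or limma voom, and 0 were lower at an unadjusted p under 0.05. Armcx6 (0.553 ± 0.331 to 1.72 ± 0.359 CPM, log2 fold change 1.57), Bex1 (1.36), Armcx2 (1.11), Gprasp1 (1.05), Armcx3 (0.63) and Bhlhb9 (0.45) rose by edgeR's test, and the same 6 were called with the Y-linked covariate. Armcx1, Zmat1, Armcx5, Arxes2, Arxes1, Tceal8 and Tceal5 did not pass. Genes with related sequence can share reads, and the annotation starts Gprasp1 and Armcx5 at the same base, so single values there are uncertain.

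**Figure D4:**
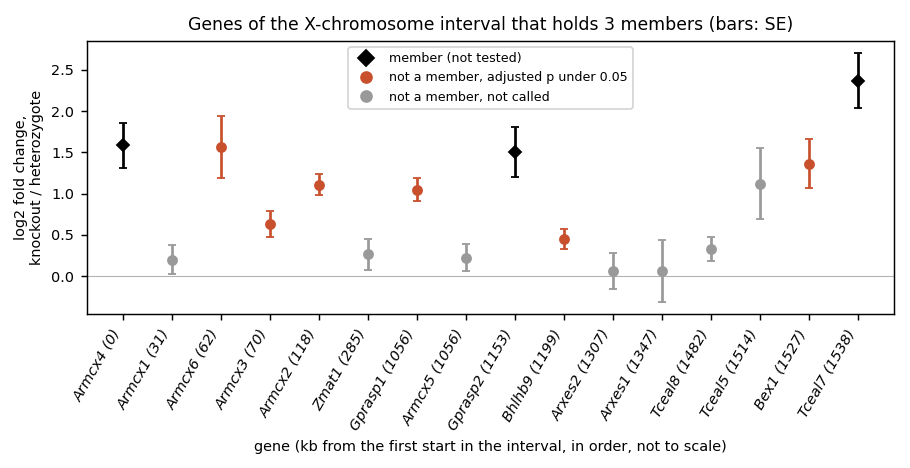
Log2 fold change, knockout over heterozygote, of the tested genes in the stretch of the X chromosome from Armcx4 to Tceal7, with the genes in chromosomal order (not to scale, distance from the start of Armcx4 in kb beside each name), chosen genes as black diamonds, called genes in red, others in grey and standard errors as bars. The 6 called genes run from 0.45 to 1.57, and none of the 13 genes outside the rule was called lower.

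Head-to-head neighbours, which start within 5 kb of a chosen gene on the other strand and point away from it, were found for 6 of the 78 genes. Of these partners, 4 were tested and outside the rule, and 3 of these were called higher, against 10.2% of all tested genes. None was called lower by edgeR, DESeq2 or limma voom, and 0 were lower at an unadjusted p under 0.05. Sema5a, a membrane-bound semaphorin whose start lies 151 bases from that of 0610007N19Rik, rose from 5.38 ± 1.92 to 13.8 ± 2.99 CPM (SD, n = 5 each, log2 fold change 1.29, adjusted p = 0.00115, edgeR). Col4a5, the collagen chain gene 1343 bases from Col4a6, rose from 184 ± 30.4 to 423 ± 53.2 CPM (SD, n = 5 each, log2 fold change 1.12, adjusted p = 6.38e-05, edgeR). The stretch printed for 0610007N19Rik reaches from its start to the first base of Sema5a, and the Col4a6 stretch is the part nearest to Col4a6. Irx5, an Iroquois transcription factor known for the repolarisation gradient of the ventricle, starts 1676 bases from 4933436C20Rik and rose from 24.2 ± 7.74 to 44.6 ± 6.56 CPM (SD, n = 5 each, log2 fold change 0.80, adjusted p = 0.0113, edgeR). Hspa1a, 547 bases from Hspa1l, was at 23.1 ± 20.7 and 45.2 ± 41.6 CPM and did not pass (SD, n = 5 each, adjusted p = 0.497, edgeR). Counting was run with no strand option, which matters most where such neighbours overlap.

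Of the 63 tested genes that were the nearest on either side of a chosen gene, within 100 kb, 14 were called higher and 3 lower, with a median log2 fold change of 0.14 against 0.0023 over all tested genes, of which 10.2% were called higher and 8.64% lower. Bex1, Gprasp1, Bhlhb9, Sema5a, Col4a5 and Irx5, already counted above, were among the neighbours called higher, so these counts are not separate observations. Other neighbours that rose included Myocd (138 ± 22.8 to 250 ± 81.8 CPM, log2 fold change 0.77), the SRF coactivator of cardiac and smooth muscle, and Zfp90 (0.76). Those that fell were Chrna2, Psap and Prdx3, the last from 448 ± 35.8 to 324 ± 12.7 CPM (SD, n = 5 each, log2 fold change -0.54, adjusted p = 0.000467, edgeR). Genes that share a symbol stem with a chosen gene, a stand-in for its family, numbered 190 tested. Of these, 38 were called higher and 14 lower, with a median log2 fold change of 0.02, against the same shares over all tested genes. The 38 include Adamts8, which met the thresholds of the rule and was left out by name, so nothing is read from its call. The 14 relatives called lower became 9 without knockout 1 and 9 without knockout 3. With 1 animal left out, relatives called higher numbered 26 to 38, and neighbours called higher numbered 10 to 13.

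Such relatives moved both ways. Sema5a, Col4a5, Gprasp1, Armcx2, Armcx3 and Armcx6, already counted above, were also among the relatives called higher, so these counts overlap too. Fstl4 (10.4 ± 4.16 to 24.6 ± 2.88 CPM, log2 fold change 1.16) and Panx2 (0.940 ± 0.327 to 2.62 ± 0.545 CPM, log2 fold change 1.41) rose with Fstl3 and Panx1. Of the 10 MAP kinase genes tested beside Mapk4, Mapk12 was called higher (log2 fold change 1.55) and Mapk14 lower (-0.51). Among the Wnt ligands beside Wnt5b, Wnt9a rose (11.4 ± 3.53 to 22.4 ± 3.52 CPM, log2 fold change 0.87) and Wnt5a fell (8.44 ± 1.57 to 3.87 ± 0.670 CPM, log2 fold change -1.21). Ces1d, a carboxylesterase on the same chromosome as Ces5a, fell from 7.13 ± 3.17 to 1.81 ± 1.94 CPM (SD, n = 5 each, log2 fold change -1.96, adjusted p = 0.0115, edgeR). Of the 10 gamma-protocadherin A genes tested beside Pcdhga3, 6 were called higher, but these share exons and are not separate observations.

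The chosen genes were also read against 10 lists of genes that touch their roles, chosen with earlier results of these data known, and counted without the chosen genes themselves. Over all tested genes, 10.2% were called higher and 8.64% lower. Among 30 tested growth factor and cytokine ligands, to which Edn3 belongs, 8 were called higher and 4 lower, with a median log2 fold change of -0.11. Leaving out 1 animal gave 6 to 10 higher and 3 to 5 lower. Tgfb2 rose most (13.2 ± 2.76 to 101 ± 22.5 CPM, log2 fold change 2.87), followed by Bmp2 (1.79), and Hbegf, Tgfb3 and Igf1 rose by 0.97, 0.92 and 0.86, while Bmp6 (-1.02) and Fgf16 (-0.70) fell. Of 29 axon guidance and adhesion genes, 6 were called higher and 2 lower, with a median of 0.09, and 10 were higher with library totals alone as the scaling. Ntn4, a netrin of basement membranes, rose from 23.8 ± 3.14 to 66.4 ± 11.1 CPM (log2 fold change 1.40) and the adhesion receptor gene Flrt2 rose by 0.95, while Lrrc4b and Ephb1 fell by 1.30 and 1.23 on the log2 scale. Neuronal and vesicle release genes gave 2 higher and 1 lower of 12 tested, with a median of -0.03: Uchl1 and Ncam1 rose and Rab3a fell. Without the filter on low counts, 3 of 44 tested genes of this list were lower and 2 higher.

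Skeletal muscle and developmental sarcomere genes gave 4 higher and 2 lower of 10 tested, with a median of 0.33. Casq1, the calsequestrin of skeletal muscle, rose from 36.4 ± 11.6 to 761 ± 303 CPM (log2 fold change 4.30) and Mybpc2, fast skeletal myosin-binding protein C, from 35.6 ± 11.2 to 298 ± 40 CPM (2.97). Chrnb1 and Tnnt1 rose by 1.44 and 0.51, while Cacna1s and Tmod4 fell. The sum of the skeletal muscle cell markers was lower in knockouts, 2365 to 3363 CPM against 3617 to 5665 CPM (exact permutation test, two-sided, p = 0.00794, the smallest 5 against 5 animals can give, adjusted p = 0.0476). It was made up mostly of Ckm, with Myod1 at 0 in every animal, so it mainly follows Ckm. Myh1, Myh4, Pvalb and Tnnt3 had heterozygote means of 0.0388, 0.107, 0.0820 and 0.111 CPM. Their knockout means were 0.0373, 0.0649, 0.0276 and 0.283 CPM. Mylpf and Tnni2 were at 0.690 and 2.58 CPM in heterozygotes and at 1.25 and 2.86 CPM in knockouts. Ckm, the muscle creatine kinase, fell from 4138 ± 698 to 2203 ± 128 CPM (SD, n = 5 each, adjusted p = 4.12e-05, edgeR). Acta1, skeletal alpha-actin, was called higher (151 ± 107 to 547 ± 416 CPM, SD, n = 5 each, log2 fold change 1.78, adjusted p = 0.0429, edgeR), a call lost without heterozygote 1, 3, 4 or 5, without knockout 1, 2 or 3, and with the Y-linked covariate.

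Among 36 tested ion channels of the immature or stressed cardiomyocyte, 3 were called higher and 8 lower, with a median of -0.33. Leaving out 1 animal gave 3 to 4 higher and 6 to 9 lower. The T-type calcium channel gene Cacna1g rose from 50.5 ± 7.55 to 111 ± 15.3 CPM (log2 fold change 1.05), and P2rx5 and Cacnb1 rose by 1.02 and 0.97. Genes of the transient outward current fell, Kcnd2 from 28.5 ± 6.86 to 4.97 ± 1.15 CPM (-2.60) and Kcnip2 from 71.3 ± 7.62 to 29.5 ± 6.61 CPM (-1.35), as did Scn4b (-2.62) and Hcn2 (-1.29).

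Of 18 tested p53 targets, 7 were called higher and 1 lower, with a median of 0.42. The number called higher ran from 5 to 9 when 1 animal was left out. Eda2r, on the X chromosome, rose from 10.2 ± 2.15 to 30.4 ± 2.88 CPM (log2 fold change 1.5), and Zmat3, Cdkn1a and Phlda3 rose by 1.13, 1.00 and 0.73, while Perp was lower (-0.33), a call lost with library totals alone as the scaling. The 1 lower gene became 2 without heterozygote 2 and 2 without knockout 1. YAP-TEAD targets gave 4 higher of 19, with a median of 0.13. None of the 19 was called lower by edgeR, DESeq2 or limma voom, 1 was lower at an unadjusted p under 0.05, and 1 was called lower by edgeR without heterozygote 4. Ankrd1 rose from 521 ± 159 to 4289 ± 1291 CPM (log2 fold change 2.97) and Ctgf from 134 ± 45.6 to 419 ± 155 CPM (1.56), and Tgfb2 stands on this list too. Immediate early and AP-1 genes moved the other way, with 1 higher (Mafk) and 6 lower of 25 and a median of -0.46. Klf4 fell by 0.97 on the log2 scale and Zfp36 by 0.55. The 6 lower genes became 3 without heterozygote 2, 3 without heterozygote 3 and 2 without knockout 2, but 9 without heterozygote 4, and the 1 higher became 2 without heterozygote 3. The ATF4 and unfolded protein list gave 2 higher (Psat1 and Slc7a5) and 2 lower of 24, with a median of -0.04, and 1 lower without heterozygote 1 or 5 or without knockout 1, 3 or 4, but 3 without knockout 5. The matrix and wound list gave 1 higher (Sparc) and 1 lower (Adamts9) of 29, with a median of -0.08. Its higher count was 2 without heterozygote 1 or 2 or knockout 5 and 3 without heterozygote 4, and its lower count was 0 without heterozygote 2 or knockout 1 or 3 and 2 without heterozygote 5.

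**Figure D5:**
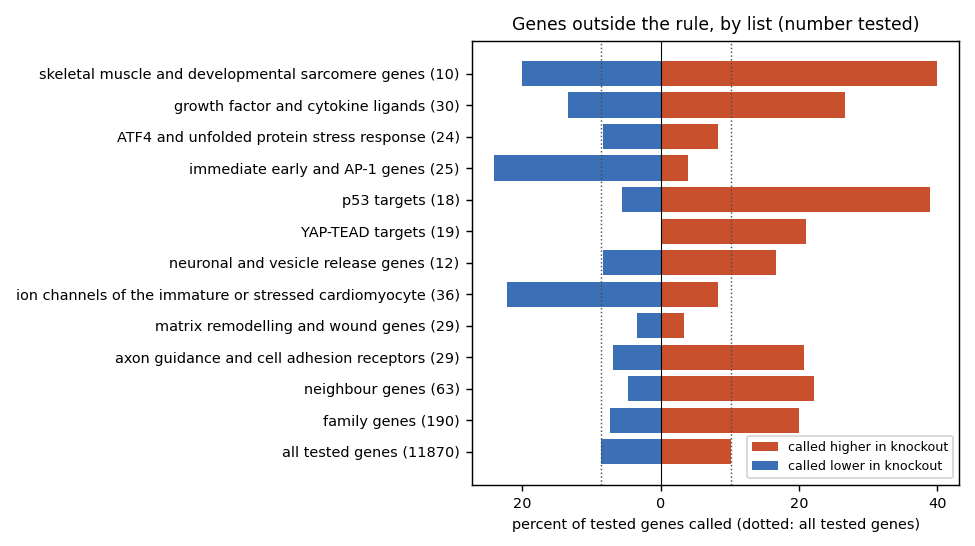
Percent of tested genes called higher (right) or lower (left) in knockouts on each list, without the chosen genes, with the number tested in brackets and dotted lines at the percentages for all tested genes. The skeletal and p53 lists lie farthest to the right, and the immediate early and channel lists are the ones with more genes lower than higher.

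Markers of other cells the sort could hold were compared over the 5 animals of each genotype with exact permutation tests, two-sided, adjusted over 12 cell types. Macrophage markers (9 genes) summed to 14.5 to 41.9 CPM in heterozygotes and 10.4 to 14.4 CPM in knockouts (p = 0.00794, adjusted p = 0.0476, exact permutation test), lower in all 5 knockouts than in any heterozygote. This adjusted p, and that of the skeletal muscle sum, rose above 0.05 without heterozygote 2 and without each knockout in turn, to between 0.0952 and 0.238. For both sums, every heterozygote stayed above every knockout whichever animal was left out. Leaving out an animal gives groups of unequal size and fewer arrangements to compare. The rise therefore does not show that either difference rests on a particular animal. Endothelial markers summed to 629 to 1191 CPM and 434 to 776 CPM (p = 0.119, exact permutation test), fibroblast markers to 339 to 514 CPM and 315 to 651 CPM (p = 0.984, exact permutation test), and smooth muscle and pericyte markers to 456 to 731 CPM and 543 to 724 CPM (p = 0.746, exact permutation test). Within that last list, Cspg4, which encodes the pericyte proteoglycan NG2, rose from 35.9 ± 6.02 to 136 ± 20.1 CPM (SD, n = 5 each, log2 fold change 1.84, adjusted p = 1.23e-06, edgeR). Of its other markers, Cnn1 was at 1.59 ± 0.682 and 3.51 ± 1.84 CPM and did not pass (SD, n = 5 each, adjusted p = 0.0806, edgeR), Mylk was called lower (adjusted p = 0.0457, edgeR), and Abcc9, the largest part of the sum, was at 378 ± 76.7 and 334 ± 53.4 CPM (SD, n = 5 each, adjusted p = 0.228, edgeR). The call for Mylk was lost without heterozygote 2, 4 or 5, without knockout 1, 2 or 5, and with library totals alone as the scaling. Schwann cell and neuron markers summed to 10.7 to 16.7 CPM and 8.01 to 14.1 CPM. Erythroid and platelet markers stayed at or under 4.31 CPM, with the 4 haemoglobin genes at 0. No marker sum was called higher in the knockouts, and the part of other cell types in the chosen genes was not tested further.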

How the data were processed

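The deposited table holds raw read counts per gene in 1 column per sample. Per the file headers it was made with featureCounts 1.5.1, run with no strand option and with the UCSC mm10 gene annotation, and the same deposited file gives each gene's summed exon length in bases as another value. The submitters' processing notes list CASAVA 1.8, STAR 2.5.3a, featureCounts and Subread 1.5.2. Another 4 count columns of other samples were not used. Counts were divided by column totals to give CPM, and by exon length for RPKM. Library totals of 8086656 to 25237696 counts set 3 counts at 0.119 to 0.371 CPM in single heterozygotes. The chosen genes and the lists were selected with earlier results of these data known.

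All genes were fitted with edgeR 4.0.16 (quasi-likelihood F test, TMM factors, filterByExpr defaults of 10 and 15 counts) in R 4.3.3, with Benjamini-Hochberg adjustment over the 11870 tested genes and calls at an adjusted p under 0.05. The procedure was tested on simulated data. Marker sums were compared over all 252 arrangements of 5 against 5 animals. Values in every animal are given for the 24 genes with the highest knockout mean, the 10 with the highest ratio and those on a list. Roles, head-to-head pairs and the X chromosome stretch were examined after values were seen. Alternatives were other scalings (RLE, upper-quartile, library totals), no filter, a replicate block, a Y-linked covariate, DESeq2 1.42.0, limma 3.58.1 (voom), other thresholds of the rule, and leaving out each animal.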

Additional observations from a re-analysis of the deposited data

Results flagged for a closer look

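In 8 of 94 groups of 5 animals, 1 animal stood far from the other 4: its gap to the nearest, as a share of the group's range, exceeded 0.71. Chance gives about 1 in 20 groups, here about 4.7. Gene values were compared as log2 CPM and marker sums as CPM.

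Sntg2 was lowest in heterozygote 5 (gap share 0.830, 0.0970 CPM against 0.227 CPM for the nearest animal). Rorb was lowest in heterozygote 2 (0.738, 1.16 against 2.97 CPM). Arnt2 was lowest in knockout 4 (0.755, 4.32 against 7.04 CPM). AW551984 was highest in knockout 3 (0.731, 112 against 71.0 CPM). For each of these genes the rule itself required every knockout above every heterozygote.

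Among the marker sums, the cardiomyocyte sum was highest in knockout 1 (0.751, 123862 against 109844 CPM) and the atrial sum in knockout 5 (0.842, 468 against 121 CPM). The endothelial sum was highest in heterozygote 4 (0.724, 1191 against 784 CPM) and the skeletal muscle sum in heterozygote 2 (0.713, 5665 against 4205 CPM).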

How the results depend on the processing

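The number of chosen genes was 78 by the rule, 149 with a ratio of at least 2, 54 with a ratio of at least 4, 65 to 90 with the other thresholds and scaling tried, and between 74 and 88 when 1 animal was left out. Recomputed fold changes of the named genes moved by less than 1 SD between replicates in 475 cases and by more in 1, Ces5a without heterozygote 1 (8.37 to 8.20). The largest shifts in size, within that wide spread, were those of Tmem90b and Edn3 to 7.27 and 7.46 without the same animal. Whole-table calls numbered 2241, and 1699 to 2258 with 1 animal left out. With library totals alone as the scaling they numbered 2444, of which 68.9% were higher, against 54.3% with TMM. That scaling moved the median log2 fold change of all genes from 0.0023 to 0.0839, and the medians to 0.511 for the p53 list, 0.224 for neighbours and 0.107 for relatives.

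List medians moved for skeletal genes without the filter (0.130) and for neuronal genes without the filter (0.104), with the replicate block (0.109) and with limma voom (0.137). With 1 animal left out, medians ran from -0.104 to 0.0948 for growth factors, -0.485 to -0.0966 for immediate early genes, 0.304 to 0.572 for p53 targets, -0.128 to 0.211 for neuronal genes and 0.106 to 0.152 for neighbours. The growth factor and neuronal medians thus changed sign, as did those of the matrix list (-0.277 to 0.0259), the ATF4 list (-0.0842 to 0.0451) and relatives (-0.0242 to 0.0389). The cause of these shifts was not tested. Differences of marker sums, knockout minus heterozygote, ran from -13.0 to -6.11 CPM for macrophages and from -1707 to -1195 CPM for skeletal muscle with 1 animal left out.

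Not every pair of same-numbered animals deviated together, so the numbers were not taken as pairs: deviations of same-numbered animals correlated at 0.112, -0.0124, -0.0604, 0.185 and 0.141, and 4 of 10 animals correlated best with their own number. With the replicate block 2182 genes were called, and 22 relatives were lower in place of 14. Libraries of this depth give single heterozygotes few reads for the rarest genes, so ratios such as those of Edn3, Tmem90b and Ces5a are imprecise.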
